A study of Homo sapiens with 4 samples.

Results

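The genes described here encode the BBSome and the proteins that act directly on it: the 8 subunits TTC8, BBS1, BBS2, BBS4, BBS5, BBS7, BBS9 and BBIP1, the small GTPase ARL6, and LZTFL1. These 10 genes were taken by name out of the 64252 gene IDs of the count table, each matched 1 ID, and all 10 had enough counts to be tested. RNA was sequenced from SK-N-BE(2), an established human neuroblastoma line with amplified MYCN. The cells carried either a short hairpin RNA against TTC8 (shTTC8, labelled as a TTC8 knockdown) or a scramble hairpin (shScb, labelled as control), with 2 libraries in each group. The labels give neither a time after transfection nor the hairpin sequence, and they do not state whether replicates were grown as separate cultures or came from 1 clone, so each p-value reflects the spread of these 4 libraries alone, which may be technical.

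The BBSome is a coat-like complex that links membrane receptors to the intraflagellar transport machinery and so moves them within and out of the primary cilium. Inherited loss of its subunits causes Bardet-Biedl syndrome, a ciliopathy with retinal degeneration, obesity and extra digits. TTC8, also called BBS8, is a subunit rich in tetratricopeptide repeats, as is BBS4. BBS1, BBS2, BBS7 and BBS9 carry beta-propeller domains, BBS5 has pleckstrin homology domains that bind lipids, and BBIP1 is a short peptide-like subunit. ARL6 in its GTP-bound form recruits the complex to membranes through BBS1, and LZTFL1 binds the complex in the cytoplasm and limits its entry into cilia.

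Gene counts summed to 38284663 and 40863047 in the shTTC8 libraries, against 51168727 and 55331449 in the shScb libraries. Of the adrenergic neuroblastoma markers all 9 were detected. They summed to 6730 and 6885 CPM (counts relative to library size scaled by edgeR's TMM factors) in shTTC8 and 9317 and 9732 in shScb. MYCN alone held 3713 and 3820 CPM of the sum in shTTC8, and 5661 and 5815 CPM in shScb. Of the 9 markers, 7 were lower and ISL1 was higher (log2 fold change of shTTC8 over shScb 0.27). HAND2 was not called (log2 fold change 0.06). Fibroblast markers also moved between the groups: the 6 genes summed to 74.9 and 73.7 CPM in shTTC8 and to 282 and 269 CPM in shScb, the 5 that could be tested were all lower, and COL1A2 had 0 counts in both shTTC8 libraries and 7 and 5 in shScb. The 5 endothelial markers summed to at most 0.309 CPM in shTTC8 and 1.66 CPM in shScb, with PECAM1 and TEK at 0. The 5 blood cell markers summed to 4.74 and 4.06 CPM in shTTC8 and to 16.7 and 15.9 CPM in shScb, most of it PTPRC, with CD3E and HBB at 0. Glial markers summed to 15.6 and 14.1 CPM in shTTC8 and to 36.7 and 38.6 CPM in shScb, with SOX10 at 0, and epithelial markers to 6.80 and 7.59 CPM and to 8.41 and 8.26 CPM, with CDH1 at 0. The part of these differences in the results below was not tested.

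TTC8, the target of the hairpin, had the smallest p of all 19610 tested genes. It lies on the plus strand of chromosome 14 (88824153 to 88881078, GRCh38). Its level was 29.1 and 30.6 CPM in the shTTC8 libraries, against 196 and 191 CPM in the shScb libraries. The groups lay far apart and each pair of replicates close together. By edgeR's quasi-likelihood test 15.4% of the shScb level remained (95% interval 14.0 to 17.0%; log2 fold change of shTTC8 over shScb -2.70 with SE 0.07, edgeR adjusted p = 5.38e-12). Only 0.311% of tested genes had a larger fall. In bulk RNA, fewer cells with a transcript and less transcript per cell cannot be told apart.

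**Figure D1:**
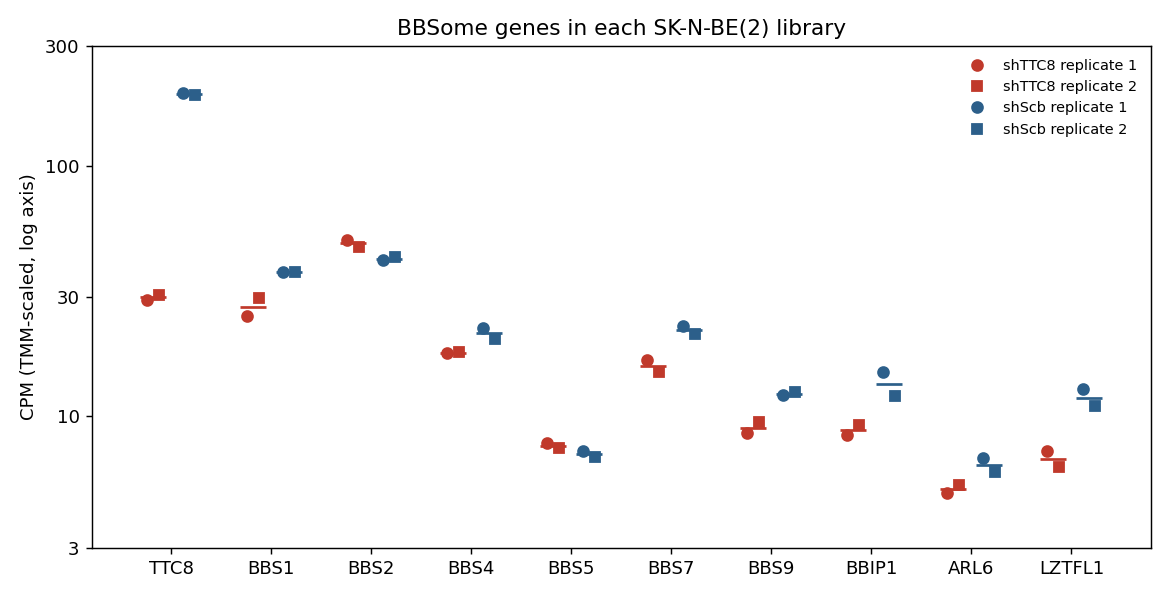
Level of the 10 genes in each library, in CPM on a log axis, with shTTC8 in red and shScb in blue, replicate 1 as circles, replicate 2 as squares and group means as lines. TTC8 stands at 29.1 and 30.6 CPM in shTTC8 and at 196 and 191 CPM in shScb, and the separation of every other gene is far smaller.

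Among the partner subunits, 4 of 7 were lower in shTTC8 by the edgeR test (adjusted p under 0.05), where 16.7% of all tested genes were called lower. Each of these 4 kept 65.7 to 73.2% of its shScb level. BBIP1, the smallest subunit, showed the largest fall of them. It had 8.47 and 9.28 CPM in shTTC8, against 15.0 and 12.03 CPM in shScb (log2 fold change -0.61 with SE 0.13, edgeR adjusted p = 0.00278). The groups did not overlap, but the shScb libraries differed from each other by more than the shTTC8 libraries did. BBIP1 shares 1277 exonic bases with PDCD4 on the opposite strand, whose counts were 976% of its own, so without strand in the library kit its level is uncertain. PDCD4 itself was slightly above in shTTC8, at 119 and 118 CPM, against 106 and 109 CPM in shScb, and was not called (log2 fold change 0.14, edgeR adjusted p = 0.0807).

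BBS7, a beta-propeller subunit that pairs with BBS2 in the core of the complex, had 16.7 and 15.1 CPM in shTTC8 and 22.95 and 21.27 CPM in shScb. The groups were clear of each other, and 71.9% of the shScb level remained (95% interval 62.0 to 83.4%; log2 fold change -0.48 with SE 0.10, edgeR adjusted p = 0.00204). BBS7 lies on chromosome 4 (121824440 to 121870497, minus strand) only 506 bases from the cyclin gene CCNA2, which was not called (log2 fold change -0.14 with SE 0.06, edgeR adjusted p = 0.092). BBS9, which binds many of the other subunits, had 8.60 and 9.47 CPM in shTTC8, against 12.2 and 12.5 CPM in shScb. Its log2 fold change was -0.45 (SE 0.12, edgeR adjusted p = 0.0105); without shTTC8 replicate 1 it was -0.38 and the call was lost (edgeR adjusted p = 0.105, in a range of 0.00539 to 0.105 over 13 other settings).

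BBS1, the subunit that ARL6 binds, had 25.1 and 29.8 CPM in shTTC8, against 37.75 and 37.84 CPM in shScb. The shScb libraries were nearly equal, and the lower shTTC8 library stood out. In that library alone, shTTC8 replicate 1, a same-strand gene named AP002748.4 held 198 counts, and it held 0 in the other 3 libraries. AP002748.4 shares 3311 exonic bases with BBS1, so the counter may have divided the reads of these genes differently in that library, which was not tested. It also shares 236 same-strand exonic bases with DPP3, and the part of its counts that came from DPP3 was not tested. Adding all AP002748.4 counts to BBS1 gave 30.2 and 29.8 CPM in shTTC8, beside the same shScb values. The log2 fold change was then -0.33 (SE 0.08, edgeR adjusted p = 0.0052), against -0.46 (SE 0.09, edgeR adjusted p = 0.00152) for BBS1 counts alone, so BBS1 was lower either way. BBS1 also shares 759 exonic bases with ZDHHC24 on the opposite strand, which had 102% of its counts and was not called (log2 fold change -0.05, edgeR adjusted p = 0.746).

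The other 3 partner subunits were not called. BBS4, which like TTC8 is built of tetratricopeptide repeats, had 17.9 and 18.1 CPM in shTTC8 and 22.6 and 20.3 CPM in shScb. Both shTTC8 libraries lay below both shScb libraries, and the 95% interval of the remaining level ran from 72.6 to 96.8% (log2 fold change -0.25 with SE 0.10, edgeR adjusted p = 0.0593). Without shScb replicate 2 BBS4 was called lower (log2 fold change -0.33, edgeR adjusted p = 0.0158), where 13 other settings gave adjusted p from 0.0158 to 0.28.

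BBS2, the partner of BBS7 in the core, lay on the other side of 0. It had 50.5 and 47.4 CPM in shTTC8, against 41.9 and 43.3 CPM in shScb. The groups did not overlap, with the shTTC8 libraries above, and the log2 fold change was 0.20 (SE 0.08, 95% interval 0.04 to 0.36, edgeR adjusted p = 0.0573). Without shScb replicate 2 BBS2 was called higher (log2 fold change 0.22, edgeR adjusted p = 0.0305), and over 13 other settings adjusted p ran from 0.0241 to 0.39. It shares 220 exonic bases with OGFOD1 on the opposite strand, which had 165% of its counts and a log2 fold change of -0.14 (edgeR adjusted p = 0.126). BBS5, the lipid-binding subunit, had 7.83 and 7.47 CPM in shTTC8 and 7.30 and 6.92 CPM in shScb. The shTTC8 libraries were above by little, and the interval spanned 87.0 to 133% of the shScb level (log2 fold change 0.11 with SE 0.14, edgeR adjusted p = 0.629).

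Of the regulators, LZTFL1 fell the most of all genes here other than TTC8. It had 7.31 and 6.28 CPM in shTTC8, against 12.8 and 10.97 CPM in shScb, with a clear gap between the groups. Of the shScb level 57.1% remained (95% interval 46.4 to 70.4%; log2 fold change -0.81 with SE 0.14, edgeR adjusted p = 4.68e-04), and 6.80% of tested genes had a larger fall. LZTFL1 lies on the minus strand of chromosome 3 (45823316 to 45916042). ARL6, on the plus strand of the same chromosome (97764521 to 97801242), had the fewest counts of the 10 genes, with 4.94 and 5.34 CPM in shTTC8 and 6.81 and 6.03 CPM in shScb. Its libraries did not overlap between groups, but it rests on 192 to 344 counts a library, and the 95% interval reached from 62.8 to 102% of the shScb level (log2 fold change -0.32 with SE 0.16, edgeR adjusted p = 0.161).

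Counted together, 6 of the 10 genes were lower and 0 higher, where 16.7% of all tested genes were called lower and 15.2% higher, 31.9% in all. Leaving out TTC8, 5 of 9 were lower, or 55.6%. At an unadjusted edgeR p under 0.05, 7 of the 10 were lower and 1, BBS2, was higher. Leaving out TTC8, the hairpin's target, 6 of 9 were lower at that threshold. Many genes reached that threshold: CCNA2, at an edgeR p of 0.0345, ranked only 7363 of the 19610 tested genes by p. DESeq2 and limma-voom also called 6 of the 10 lower and 0 higher. Over all genes, DESeq2 called 2832 lower and 2590 higher, and limma-voom 3005 lower and 2787 higher. Both shTTC8 libraries lay below both shScb libraries for 8 of the 10 genes (32.9% of all tested genes) and above for 2, BBS2 and BBS5 (32.5% of all tested genes). The median log2 fold change of the 9 genes other than TTC8 was -0.45, beside 0.00 over all 19610 tested genes. Among the 7605 tested genes with a mean of 5 to 50 CPM, the band that holds these 9 genes, 20.6% were called lower, 17.8% higher, and the median was -0.01.

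**Figure D2:**
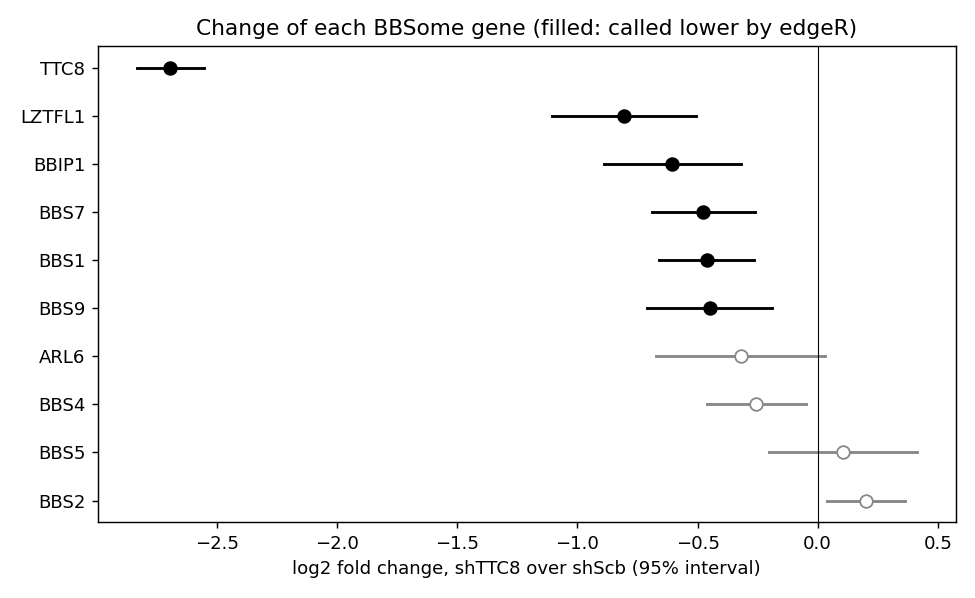
Log2 fold change of shTTC8 over shScb for each gene (dot) with its 95% interval (line), filled where edgeR called the gene lower. TTC8 stands alone at -2.70, a group from LZTFL1 (-0.81) to BBS9 (-0.45) is called lower, and BBS2 and BBS5 lie above 0.

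Levels of different genes can be set side by side only per length, here as CPM per kilobase of all annotated exonic bases. On this scale TTC8 was far above all 7 partner subunits in shScb cells, while in shTTC8 cells it was below BBS2, near BBS1 and BBS4, and above the other 4. It stood at 4.77 ± 0.17 CPM per kilobase in shTTC8 and 30.9 ± 0.49 in shScb (SD, n = 2). In shTTC8, BBS2 was above it at 5.87 ± 0.26 CPM per kilobase (SD, n = 2), and BBS1 (4.46 ± 0.54; SD, n = 2) overlapped with TTC8 and with BBS4 (4.33 ± 0.03; SD, n = 2). BBS7 followed at 3.29 ± 0.25 CPM per kilobase (SD, n = 2), clear of its neighbours in the order. BBS5, BBS9, ARL6, BBIP1 and LZTFL1 came last, with means from 1.68 down to 0.944 CPM per kilobase, and of these ARL6 and BBIP1 overlapped. The order depends on the length used: per kilobase of the principal transcript, BBIP1 stood at 12.2 ± 0.78 CPM in shTTC8 and 18.6 ± 2.89 in shScb (SD, n = 2), next after BBS2 in shTTC8 and next after TTC8 in shScb. On that scale TTC8 stood at 5.67 ± 0.21 CPM per kilobase in shTTC8, below BBS2, BBIP1, BBS1 and BBS4, and at 36.7 ± 0.58 in shScb, above all 9 others (SD, n = 2).

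In shScb the gene next to TTC8 was BBS1 at 6.15 ± 0.01 CPM per kilobase (SD, n = 2). BBS4 (5.17 ± 0.38; SD, n = 2) and BBS2 (5.11 ± 0.11; SD, n = 2) overlapped, and BBS7 lay just below at 4.58 ± 0.25 CPM per kilobase (SD, n = 2). BBS9 stood at 1.99 ± 0.04 CPM per kilobase (SD, n = 2); BBIP1 at 1.67, LZTFL1 at 1.65 and BBS5 at 1.56 did not differ beyond their spread, and ARL6 was lowest at 1.40. The ratio of TTC8 to BBS4, its fellow tetratricopeptide subunit, was 1.08 and 1.12 in the shTTC8 libraries and 5.75 and 6.24 in the shScb libraries; by principal transcript it was 0.769 and 0.801 in shTTC8, with TTC8 below BBS4, and 4.09 and 4.45 in shScb.

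As a share of the summed per-length level of the 8 subunits, TTC8 made up 17.4 and 18.0% in the shTTC8 libraries, against 53.9 and 54.4% in the shScb libraries. Lengths matter here: with the principal transcript of each gene in place of all exonic bases, the shares averaged 9.72% in shTTC8 and 36.6% in shScb. The principal transcript is shorter than the exonic bases by unequal amounts, with 727 against 8075 bases for BBIP1, 2963 against 8337 for BBS2 and 5270 against 6257 for TTC8. Among the 7 partner subunits alone, BBS2 took 27.5 and 25.5% in shTTC8 and 18.8 and 20.2% in shScb. BBS7 took 15.7 and 14.0% in shTTC8 and 17.7 and 17.2% in shScb, and BBS4 stayed within its own spread, at 19.5 and 19.5% in shTTC8 and 20.3 and 19.1% in shScb. In CPM, the 7 partners together summed to 135.1 and 136.5 in shTTC8, against 159.7 and 154.1 in shScb.

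**Figure D3:**
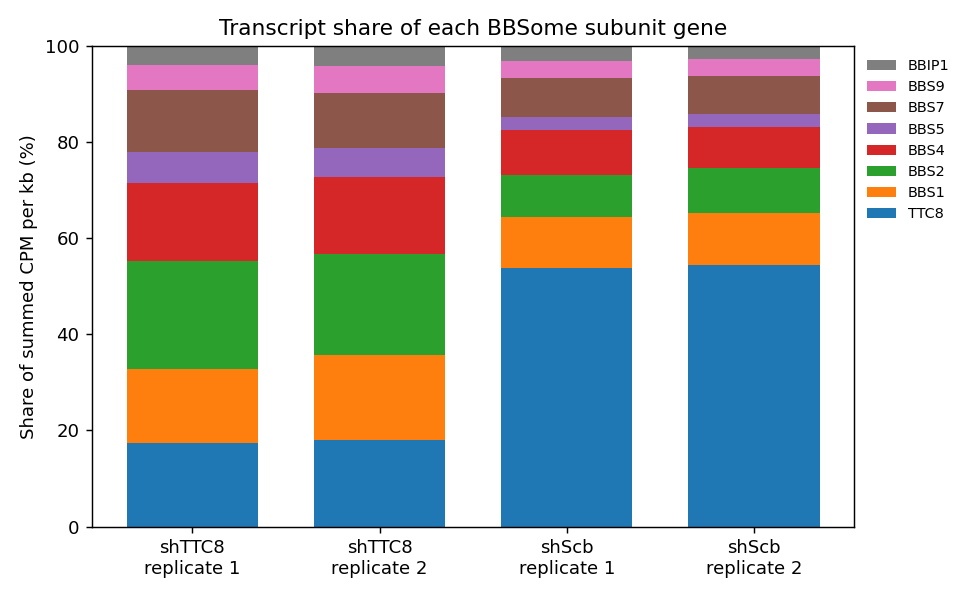
Share of each subunit gene in the summed CPM per kilobase of the 8 BBSome subunits, 1 stacked bar per library from 0 to 100%. TTC8 takes 17.4 and 18.0% of the bar in shTTC8 and 53.9 and 54.4% in shScb.

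Many ciliary genes are controlled by RFX transcription factors, which bind a palindromic promoter element, the X-box. The promoters of the BBSome genes were therefore read for the 6-letter X-box arm GTTNCC, on both strands, and for the full element, which holds the arm and its reverse complement 2 bases apart. Windows from RefSeq (GRCh38.p14), 250 bases before to 50 after a gene's start, were at hand for 9 of the 10 genes; BBS9 had none. An arm was present in at least 1 window of all 9 genes, where 50.3% of all 27305 genes hold one. By window, 11 of their 13 held an arm, where 45.4% of all 35116 promoter windows hold one. Some genes have more than 1 window, and those of ARL6 overlap and share an arm. The full element was found in 1 window, that of ARL6, against 0.490% of all windows. A match is a description of the letters and shows no binding. The stretches below, each of 30 bases, are read 5′ to 3′ on the gene's strand, and capitals mark the arms. They show an arm for TTC8, the hairpin's target, and for BBS1, BBS7 and LZTFL1, which were called lower. BBS5 and ARL6, which were not called, are also shown.
TTC8, chr14:88824605-88824634, plus strand: cagccgtcgcggGTTGCCgggcagagtcgg
BBS1, chr11:66510624-66510653, plus strand: agggcggggccgGTTGCCaggacgacgcct
BBS5, chr2:169479468-169479497, plus strand: cagaggcggcccGTTGCCttggagccagag
BBS7, chr4:121870622-121870651, minus strand: tggggtctctgtGGAAACcgccctgtatgg
ARL6, chr3:97764730-97764759, plus strand: tcctGTTGCCaaGGGAACggtgcctgccaa
LZTFL1, chr3:45842118-45842147, minus strand: ccacgtgcctcgGTTTCCgttagcaaccag

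TTC8, BBS1, BBS5 and ARL6 share the same arm, GTTGCC, within 28 bases of a start. Of these, TTC8 is the hairpin's target, BBS1 was called lower, and BBS5 and ARL6 were not called. The BBS7 arm lies farther off, 159 bases before the start. BBS4 and BBS2, which were not called, hold an arm 17 and 142 bases before the start. BBIP1, which was called lower, holds an arm 21 bases before a start. Past that start lie the arms GTTACC at 16 bases and GGCAAC at 25, without the spacing of the full element. ARL6 carries both arms of the element 2 bases apart. LZTFL1 was the only 1 of the 9 genes with the E-box letters CACGTG, the site that MYC and MAX proteins bind, in a window; 7.26% of all windows hold it. Those letters lie 21 bases before the start and overlap the stretch above.

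The listed RFX and ciliary transcription factors showed no common direction. Of 10 listed, 6 were tested, of which 2 were lower and 1 higher, with a median log2 fold change of -0.02. That median lies between RFX7 (-0.05) and RFX5 (0.004), which were not called, and the called genes lay farther from it. RFX1 had 25.8 and 24.9 CPM in shTTC8, against 13.9 and 15.7 CPM in shScb (log2 fold change 0.78 with SE 0.10, edgeR adjusted p = 2.9e-05). RFX3, a main regulator of cilium genes in mouse, had 31.4 and 29.6 CPM in shTTC8, against 39.9 and 34.9 CPM in shScb (log2 fold change -0.29, edgeR adjusted p = 0.0213). That call was lost without shTTC8 replicate 1, without shTTC8 replicate 2 and without shScb replicate 1 (edgeR adjusted p = 0.0548, 0.172 and 0.115). RFX2 was at -0.36 (edgeR adjusted p = 0.0404), and was called in 4 of 13 alternatives; without shTTC8 replicate 1 its value was -0.24 (edgeR adjusted p = 0.333), and without shScb replicate 1 or 2 the adjusted p was 0.0623 or 0.0698. FOXJ1, the driver of motile cilia, had at most 0.290 CPM in any library.

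Genes for the proteins that build the BBSome were mostly not called, and the same holds for all tested genes. Over all tested genes 16.7% were lower and 15.2% higher, which is also the background for the other lists. Chaperonins help to build the core of the complex around BBS7: MKKS, BBS10 and BBS12 are Bardet-Biedl chaperonin-like proteins, and TCP1 and CCT proteins form the general cytosolic chaperonin. Of 9 tested, 1 was lower and 1 higher (median log2 fold change 0.07). MKKS had 53.7 and 54.8 CPM in shTTC8, against 50.7 and 48.9 CPM in shScb (log2 fold change 0.12, 95% interval -0.03 to 0.28). CCT3 had 670 and 699 CPM in shTTC8, against 580 and 604 CPM in shScb (log2 fold change 0.21, edgeR adjusted p = 0.0148). It was called in 10 of 13 alternatives, and not without the low-count filter (edgeR adjusted p = 0.0682). The call was also lost without shTTC8 replicate 1 or 2, at log2 fold changes of 0.24 and 0.18. CCT8 had 190 and 196 CPM in shTTC8, against 225 and 213 CPM in shScb (log2 fold change -0.18, edgeR adjusted p = 0.0317). It was called in 8 of 13 alternatives, and not with library size alone or the replicate block (edgeR adjusted p = 0.0928 and 0.0564). The call was also lost without shTTC8 replicate 1, shTTC8 replicate 2 or shScb replicate 1, at log2 fold changes of -0.16, -0.20 and -0.14.

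Other genes mutated in Bardet-Biedl syndrome or linked to it gave 2 lower and 1 higher of 8 tested (median log2 fold change -0.07). CEP290, a transition zone protein, had 24.3 and 25.5 CPM in shTTC8, against 42.7 and 36.7 CPM in shScb (log2 fold change -0.67 with SE 0.09, edgeR adjusted p = 6.36e-05). Exons of CEP290 share 401 bases with an opposite-strand gene that had 120% of its counts. IFT27, the RAB-like GTPase of intraflagellar transport that helps the BBSome leave cilia, had 54.9 and 60.3 CPM in shTTC8, against 42.1 and 44.7 CPM in shScb (log2 fold change 0.41 with SE 0.08, edgeR adjusted p = 9.29e-04). SCAPER was at -0.39 (edgeR adjusted p = 0.0109), and was not called without shTTC8 replicate 2 or shScb replicate 2 (edgeR adjusted p = 0.0803 and 0.0716).

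Of 13 BBSome trafficking partners, 1 was lower and 2 were higher (median log2 fold change 0.04). PCM1, the centriolar satellite scaffold that binds BBS4, had 222 and 229 CPM in shTTC8, against 322 and 292 CPM in shScb (log2 fold change -0.44 with SE 0.06, edgeR adjusted p = 9.48e-05). CCDC28B, which binds several BBS proteins, had 23.5 and 24.8 CPM in shTTC8, against 11.7 and 14.4 CPM in shScb (log2 fold change 0.89 with SE 0.11, edgeR adjusted p = 2.55e-05). RAB3IP, the RAB8 exchange factor also known as Rabin8, had 2.70 and 2.25 CPM in shTTC8, against 1.35 and 1.47 CPM in shScb (log2 fold change 0.81 with SE 0.26, edgeR adjusted p = 0.0266). RAB3IP was called in 9 of 13 alternatives. It was not called with DESeq2 (DESeq2 adjusted p = 0.0915) or without the low-count filter (edgeR adjusted p = 0.0532). The call was also lost without shTTC8 replicate 1 and without shScb replicate 1, where the log2 fold change was 0.67 and 0.745. The ARF and ARL relatives of ARL6 split, with 3 lower and 5 higher of 19 tested (median log2 fold change 0.01); ARL11 and ARL14 had 0 counts in every library. ARF3 was at 0.69 (SE 0.06) and the tubulin-folding and ciliary cargo factor ARL2 at 0.57 (SE 0.07) on the log2 scale, both called higher by edgeR (adjusted p = 6.62e-07 and 2.77e-05).

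**Figure D4:**
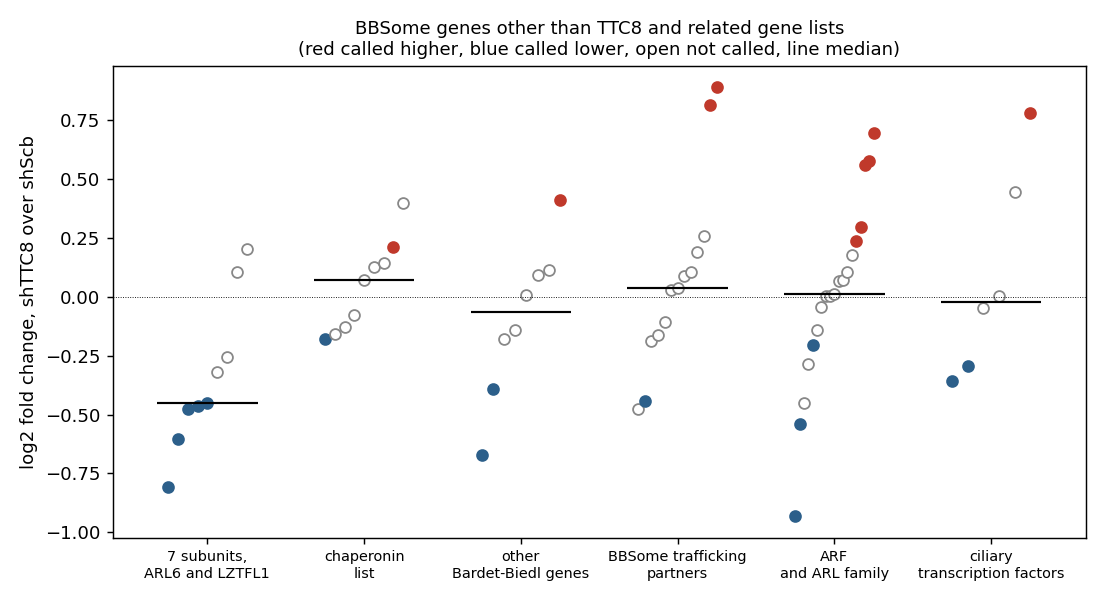
Log2 fold change of shTTC8 over shScb for the 9 BBSome genes other than TTC8 and for tested genes of 5 related lists, 1 dot a gene, red called higher, blue called lower, open not called, with the list median as a line. The 9 genes have a median of -0.45, and the other lists have medians from -0.07 to 0.07.

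Position along the chromosome was also read, since the members lie on 9 chromosomes. Of their 20 nearest protein-coding neighbours, 10 were tested, 3 were lower and 0 were higher, where 16.7% of all tested genes were lower and 15.2% higher. Both neighbours of TTC8 were lower: EML5, a microtubule-associated protein, had 130 and 122 CPM in shTTC8 and 251 and 243 CPM in shScb (log2 fold change -0.97 with SE 0.06, edgeR adjusted p = 4.1e-08), and the forkhead repressor FOXN3 had 135 and 132 CPM in shTTC8 and 174 and 163 CPM in shScb (log2 fold change -0.34 with SE 0.06, edgeR adjusted p = 6.58e-04). EML5 shares 5840 exonic bases with an opposite-strand gene that had 63.9% of its counts. The third, CRYBG3 beside ARL6, had 6.51 and 6.45 CPM in shTTC8, against 13.45 and 12.49 CPM in shScb (95% interval of the log2 fold change -1.27 to -0.73, edgeR adjusted p = 2.98e-05), and shares 1898 exonic bases with an opposite-strand gene that had 381% of its counts.

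Among the genes whose centred log2 CPM over the 4 libraries came closest to that of TTC8, by Euclidean distance among genes with a mean of at least 5 CPM, were LUM (distance 0.08), ANGPT1 (0.25), CLSTN2 (0.28) and DAND5 (0.36). LUM, the secreted proteoglycan lumican and 1 of the fibroblast markers above, had 28.6 and 31.2 CPM in shTTC8, against 191 and 180 CPM in shScb. With 4 libraries in 2 groups, any gene with a fall of like size and close replicates scores near TTC8. No BBSome gene was among the 5 closest, which the fold changes above already set. The largest fall of a BBSome gene after TTC8 was that of LZTFL1, at a log2 fold change of -0.81.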

How the data were processed

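Of tools and builds, the submitters' processing notes list HISAT2 2.2.0 and hg38; counter and annotation: not given in the sources used here. Libraries came from an Illumina TruSeq RNA kit per the labels' protocols; this kit is understood not to mark strand. The authors deposited whole-number counts per Ensembl gene, not normalized. Groups came from the sample titles.

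Symbols came from a gene name table (40995 IDs) or GENCODE 29 (15596), which also gave positions and exons; 7661 IDs had no symbol. Counts were fitted in R 4.3.3 with edgeR 4.0.16 (filterByExpr, TMM, robust quasi-likelihood F test, two-sided) over all 4 libraries, with Benjamini-Hochberg adjustment over 19610 genes at 0.05. Each standard error was the size of the fold change (log2) divided by the root of its F statistic, and 95% intervals used the t distribution. The steps were tested on simulated data. Log2 CPM used a prior count of 2. Alternatives were RLE scaling, library size alone, other low-count filters, DESeq2 1.42.0, limma-voom (3.58.1), a non-robust fit, thinning, the replicate number as a block and each library left out. A fit with the AP002748.4 counts added to BBS1 was chosen after seeing the data.

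The members and lists were chosen with earlier results of these data known. Besides the members, the text names up to 4 called genes a list, exon-sharing genes with at least 10% of a member's counts, called neighbours, and genes from the 5 closest to TTC8; some items that this rule covers are not reported here. MKKS, CCNA2, FOXJ1, COL1A2, PTPRC and the markers at 0 were named after their values were seen. The same holds for MYCN, ISL1, HAND2, CEP19, ADPGK, RFX5, RFX7 and DPP3.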

Additional observations from a re-analysis of the deposited data

How the results depend on the processing

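The direction of all 10 genes was kept in each of 13 other settings. The count of lower genes was 6 in most settings, 7 with the filter of at least 1 CPM in 2 libraries, 5 at an adjusted p under 0.01, and 5 to 7 with a library left out. The count of higher genes was 1 (BBS2) instead of 0 with library size alone and with the 1 CPM filter, and 0 to 1 with a library left out. Over all genes, 1917 instead of 2974 were higher at an adjusted p under 0.01, and 1880 to 3395 with a library left out, the fewest without shTTC8 replicate 1. The TTC8 share of the 8 subunits was 9.72% instead of 17.7% in shTTC8 and 36.6% instead of 54.1% in shScb with principal transcript lengths, which are shorter than all exonic bases. The replicate numbers showed no pairing: over genes, the difference between replicates 1 and 2 in shTTC8 correlated with that in shScb at r = 0.03. With the replicate block, 6 genes were lower and 0 higher, and of all genes 3343 were lower and 3092 higher. ARL6, LZTFL1, BBS5 and BBIP1, with lowest counts of 192, 260, 304 and 329 in a library, have the widest intervals.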
